A study of Mus musculus with 12 samples.

Results

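The microRNA and small nucleolar RNA (snoRNA) genes of mouse heart and fat were examined in RNA sequencing libraries from mice that overexpress MED13 in the heart. Members were chosen by symbol (names that begin with Mir, Mirlet, Snord or Snora followed by their number or letter, with Mir208a, Mir208b and Mir499 left out, and with no row that joins several genes) and by their level, which had to average 1 FPKM or more across a tissue's 6 libraries. FPKM, the unit the authors deposited, is the number of fragments scaled to the length of the RNA and to the depth of the library. Of 631 such rows among 23042 genes, 164 were members in ventricles and 180 in epididymal white adipose tissue (EWAT), 137 of them in both tissues and 207 in either. The mean level was thus used to choose the members, and the 4 marker genes Mir1894, Snord15b, Mir3060 and Mir196b were chosen with their differences already known, so their values are a description rather than independent support. Both genotypes were male C57BL/6 littermates of 6 weeks on chow, fed ad libitum: wild type (WT) and MED13cTg (TG), whose transgene expresses MED13 in the heart. Each genotype gave 3 libraries from each tissue, 12 altogether. The promoter that drives the transgene is not named in the sources used here. Every comparison is TG against WT within a tissue.

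A microRNA gene is transcribed as a long precursor whose hairpin is cut out by Drosha and then by Dicer to give a mature strand that guides Argonaute to messenger RNAs, mainly through its seed, the stretch that begins at the second base. Box C/D snoRNAs (Snord) guide methylation of the ribose of ribosomal and spliceosomal RNA, and box H/ACA snoRNAs (Snora) guide the change of uridine to pseudouridine. In mammals most snoRNAs and many microRNAs lie inside other genes, their hosts, and are released from introns. In the heart microRNAs of the miR-1 and miR-133 families are well known, and in fat the miR-103, miR-27 and miR-196 families. Libraries of messenger RNA fragments hardly hold mature microRNAs, which are very short, so a row here counts longer RNA that covers the hairpin or snoRNA gene.

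The hairpins of the 3 marker microRNAs and of let-7d are shown because the comparisons below turn on them. Let-7d was higher in TG without overlap in both tissues, though in EWAT TG 3 held 1 fragment, as did WT 2 and WT 3. The hairpins are taken from RefSeq (GRCm38.p6), written 5′ to 3′ with the mature strands in capitals.
Mir1894: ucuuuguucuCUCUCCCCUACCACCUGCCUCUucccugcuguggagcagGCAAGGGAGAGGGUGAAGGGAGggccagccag
Mir3060: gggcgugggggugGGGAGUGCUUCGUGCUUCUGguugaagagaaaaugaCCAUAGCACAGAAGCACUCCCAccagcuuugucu
Mir196b: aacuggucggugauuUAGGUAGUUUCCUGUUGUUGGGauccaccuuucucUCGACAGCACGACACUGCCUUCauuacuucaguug
Mirlet7d: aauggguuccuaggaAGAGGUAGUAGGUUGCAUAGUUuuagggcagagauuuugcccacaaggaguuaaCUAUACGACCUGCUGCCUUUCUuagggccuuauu

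The mature strands of the same genes follow with the seed, bases 2 to 8, in capitals.
miR-1894-5p: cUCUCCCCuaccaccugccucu
miR-1894-3p: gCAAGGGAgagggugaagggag
miR-3060-5p: gGGAGUGCuucgugcuucug
miR-3060-3p: cCAUAGCAcagaagcacuccca
miR-196b-5p: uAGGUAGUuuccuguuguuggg
miR-196b-3p: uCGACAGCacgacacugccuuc
let-7d-5p: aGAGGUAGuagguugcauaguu
let-7d-3p: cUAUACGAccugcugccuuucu

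Of the microRNA members, 85 of 97 in ventricles and 99 of 109 in EWAT had a RefSeq sequence. No other member shared a seed with either strand of miR-1894 or miR-3060 in either tissue. The seed of miR-196b-5p was shared with Mir196a-1 in EWAT. The seed of let-7d-5p was shared with 5 other members in ventricles (Mir98, Mirlet7a-1, Mirlet7b, Mirlet7c-2 and Mirlet7i) and with 6 in EWAT (Mirlet7a-1, Mirlet7b, Mirlet7c-2, Mirlet7e, Mirlet7g and Mirlet7i). The marker snoRNA Snord15b and its relative Snord15a both lie in the ribosomal protein gene Rps3. Their transcripts (GENCODE vM21) are given with the first TGATGA, part of the C box, and the last CTGA, the D box, in capitals.
Snord15b: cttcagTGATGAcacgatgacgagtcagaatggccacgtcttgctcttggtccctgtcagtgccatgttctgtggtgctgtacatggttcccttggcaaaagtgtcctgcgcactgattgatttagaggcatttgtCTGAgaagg
Snord15a: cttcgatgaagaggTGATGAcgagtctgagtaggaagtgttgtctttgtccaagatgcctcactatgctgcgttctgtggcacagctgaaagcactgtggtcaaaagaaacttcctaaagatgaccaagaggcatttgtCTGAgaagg

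On the transcript strand TGATGA occurred in 74 of 98 Snord transcripts (75.5%), and CTGA, a shorter and so less particular motif, in all 98. The longest run of bases that the 145-base Snord15b and the 148-base Snord15a share was 21.

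The transgene was visible in heart. Med13 stood at 13.1, 10.6 and 11.5 FPKM in WT ventricles and at 263, 181 and 204 FPKM in TG ventricles (log2 difference 4.08 ± 0.17 (SE); limma, adjusted p = 0.000281), and at 7.84 to 11.0 FPKM in all 6 EWAT libraries. The EWAT libraries were not alike. Transcripts of 6 epididymis genes, such as the lipocalins Lcn8 and Lcn5, summed to 38247 to 48483 in WT and to 6034, 127 and 37592 FPKM in TG 1, TG 2 and TG 3. Those of 7 testis germ cell genes, such as the protamines, summed to 213 to 303 in WT and to 13638, 5.83 and 344 FPKM in the TG libraries. Those of 6 adipocyte genes ranged from 901 FPKM in TG 1 to 60450 FPKM in TG 2. TG 1 and TG 2 thus stood apart from the other EWAT libraries, while TG 3 was close to WT. In ventricles cardiomyocyte genes summed to 30254 to 41594 FPKM and the libraries were much alike, with rank correlations over the 12589 genes tested of 0.944 to 0.969 between WT and TG.

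Most members were seen in only some libraries. In ventricles 31 of 164 members were above 0 in all 6 libraries, 133 (81.1%) were listed at 0 in at least 1, and 55 were above 0 in a single library. In EWAT 40 of 180 were above 0 in all 6, 140 (77.8%) were listed at 0 in at least 1, and 50 were above 0 in a single library. Among the other genes tested (the same level, no member), 28 of 12425 (0.225%) in ventricles and 729 of 14787 (4.93%) in EWAT were at 0 in any library. The number of members at 0 per library was 80, 93 and 85 in WT and 73, 87 and 77 in TG ventricles, and 76, 75 and 82 in WT and 91, 97 and 76 in TG EWAT. TG 1 and TG 2 had most members at 0 in EWAT, and are the same that stood apart in tissue markers and that had the lowest depth (17.4 and 18.3 M fragments, M standing for 1000000). What part the makeup and the depth of those libraries had in this was not tested.

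**Figure D1:**
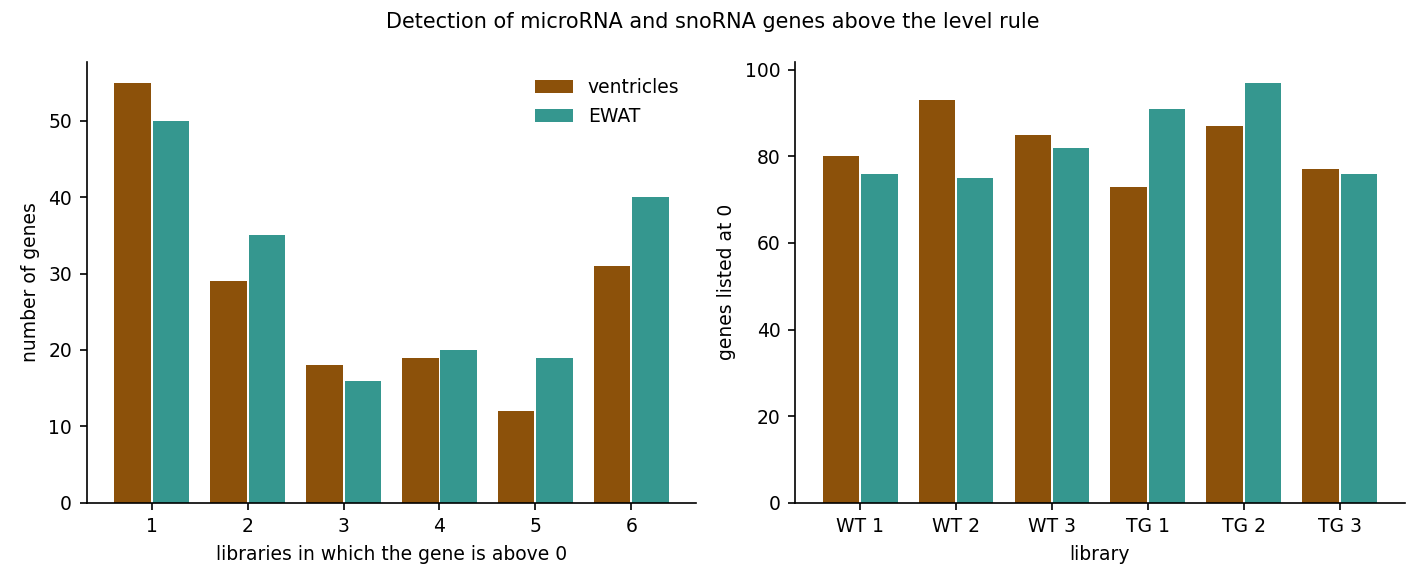
Left, number of member genes (vertical) by the number of the 6 libraries in which they were above 0 (horizontal), brown for ventricles and teal for EWAT; 55 and 50 genes were above 0 in a single library and 31 and 40 in all 6. Right, number of members listed at 0 in each library, which runs from 73 to 93 in ventricles and from 75 to 97 in EWAT.

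The values of these short genes moved in steps. When FPKM was converted to fragments with the gene's RefSeq length and the default fragment length of the authors' quantification program (mean 200, SD 80 bases, with the shortest fragment fitted at 48 bases), 660 of 689 values above 0 (95.8%) in the 8 libraries of replicates 2 and 3 came within 0.02 of a whole number, after 1 depth was fitted per library. In the 4 libraries of replicate 1 only 9.09% to 13.5% did, and fragment counts are therefore given for replicates 2 and 3. How replicate 1 was quantified is not given in the sources used here, and its FPKM may not be on the same scale as the others. Fits without replicate 1 of both genotypes, chosen after seeing the data, kept Mir1894 and Snord15b past the threshold in ventricles, and left Mir3060 and Mir196b short of it in EWAT (limma, adjusted p = 0.376 for both). Of the 689 values, 303 (44.0%) were 1 fragment and 416 (60.4%) were 1 or 2. A single fragment was worth 235 FPKM for an RNA of 73 bases, 101 FPKM for 85 bases and 30.7 FPKM for 110 bases in ventricle library WT 2, and 125, 53.8 and 16.3 FPKM in EWAT library WT 2. A member at 100 FPKM and one at 0 could thus differ by 1 or 2 fragments. The depth obtained this way was 11.8 to 13.0 M fragments per library in ventricles and 17.4 to 25.5 M in EWAT, with the replicate 1 libraries estimated from the ratios of low values. All members together took 17.5 and 16.7 fragments per M in WT and 18.5 and 18.4 in TG ventricles, and 23.3 and 20.8 in WT and 17.7 and 20.6 in TG EWAT.

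**Figure D2:**
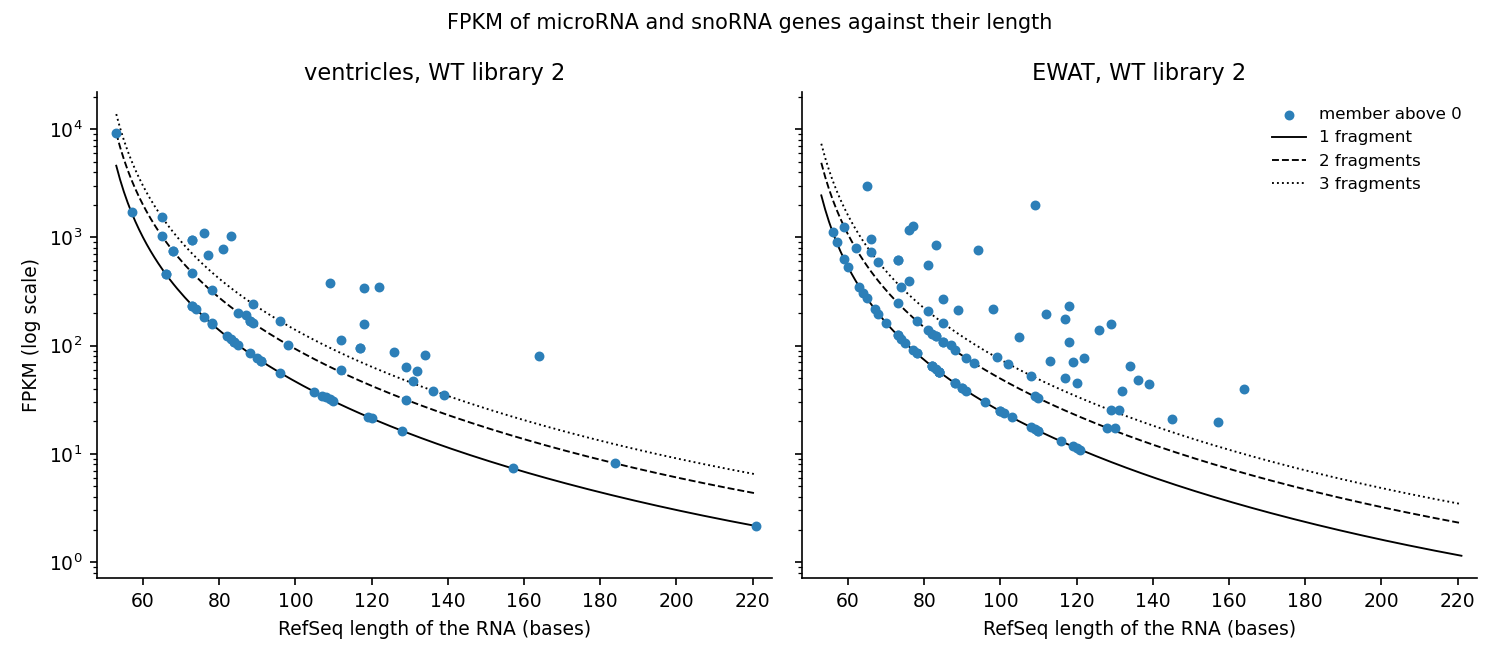
FPKM on a log scale (vertical) against the RefSeq length in bases (horizontal) of members above 0 in library WT 2 of ventricles (left) and EWAT (right); curves mark the value of 1, 2 and 3 fragments. Many points lie on the curves, and 29 of 68 values in ventricles and 43 of 104 in EWAT were 1 fragment.

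By kind, members were 97 of 528 microRNA rows (18.4%), 39 of 72 box C/D rows (54.2%) and 28 of 31 box H/ACA rows (90.3%) in ventricles. In EWAT they were 109 microRNA rows (20.6%), 43 box C/D rows (59.7%) and 28 box H/ACA rows (90.3%). Members also differed in place from the rows at 0 in all libraries. In the GENCODE annotation 68 of 164 members in ventricles (41.5%) overlapped an exon of another gene on their own strand, against 50 of 467 rows at 0 (10.7%), and 16 members (9.76%) against 137 rows (29.3%) lay between genes. In EWAT 73 of 180 members (40.6%) and 45 of 450 rows at 0 overlapped such an exon. These shares describe how the members were chosen by level, and carry no test. Members of ventricles on the other strand of a gene numbered 11 and those of EWAT 12, and where counting did not use strand their fragments cannot be told apart from those of that gene.

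In ventricles 2 members rose past the threshold, Mir1894 and Snord15b, and none fell. Mir1894 was listed at 0 in all 3 WT libraries and stood at 156, 238 and 118 FPKM in TG. The groups did not overlap, and TG libraries 2 and 3 held 2 and 1 fragments. Snord15b was listed at 0 in all 3 WT libraries and stood at 9.49, 9.14 and 9.07 FPKM in TG. Each of TG 2 and TG 3 held 1 fragment of it. The fit over 12589 genes gave a log2(FPKM + 1) difference of 7.36 ± 0.24 (SE) for Mir1894 and of 3.35 ± 0.10 for Snord15b (limma, adjusted p = 9.53e-05 for both). These sizes depend on the added 1, since WT was at 0, and no fold is given.

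Those 2 genes were also the only genes of the 12589 (0.0159%) at 0 in every WT and above 0 in every TG library, and no gene (0%) showed the opposite. Only 161 of the 12589 were at 0 in any library, 133 of them members, so few other genes could show either pattern. The 2 genes were also picked with it known. Over all genes 3 (0.0238%) rose and 4 (0.0318%) fell at an adjusted p under 0.05. At an unadjusted p under 0.05, 16 of 164 members (9.76%) were higher, beside 1.69% of all genes, and 6 (3.66%) were lower, beside 3.03%. Several of them were at 0 in a whole genotype and became members through the other alone, which fixed the sign of their estimates. Among these were Mir1894, Snord15b and Snord32a of the higher and Mir3097 and Snord55 of the lower members. For these the counts support no difference. Others, such as Mir3100 and Snora3, were above 0 in every library. They were not tested as a set, and the counts are a description only. Over replicates 2 and 3 Mir1894 amounted to 0 fragments in WT, which allows up to 0.127 per M, and to 3 in TG, 0.116 per M with an exact 95% Poisson interval of 0.0239 to 0.339. Snord15b amounted to 0 in WT, with the same limit of 0.127 per M, and to 2 in TG, 0.0774 per M (0.00937 to 0.280). In both genes the WT limit lay above the TG estimate, so by counting error alone a difference was not detectable at this depth. These intervals cover counting error only.

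**Figure D3:**
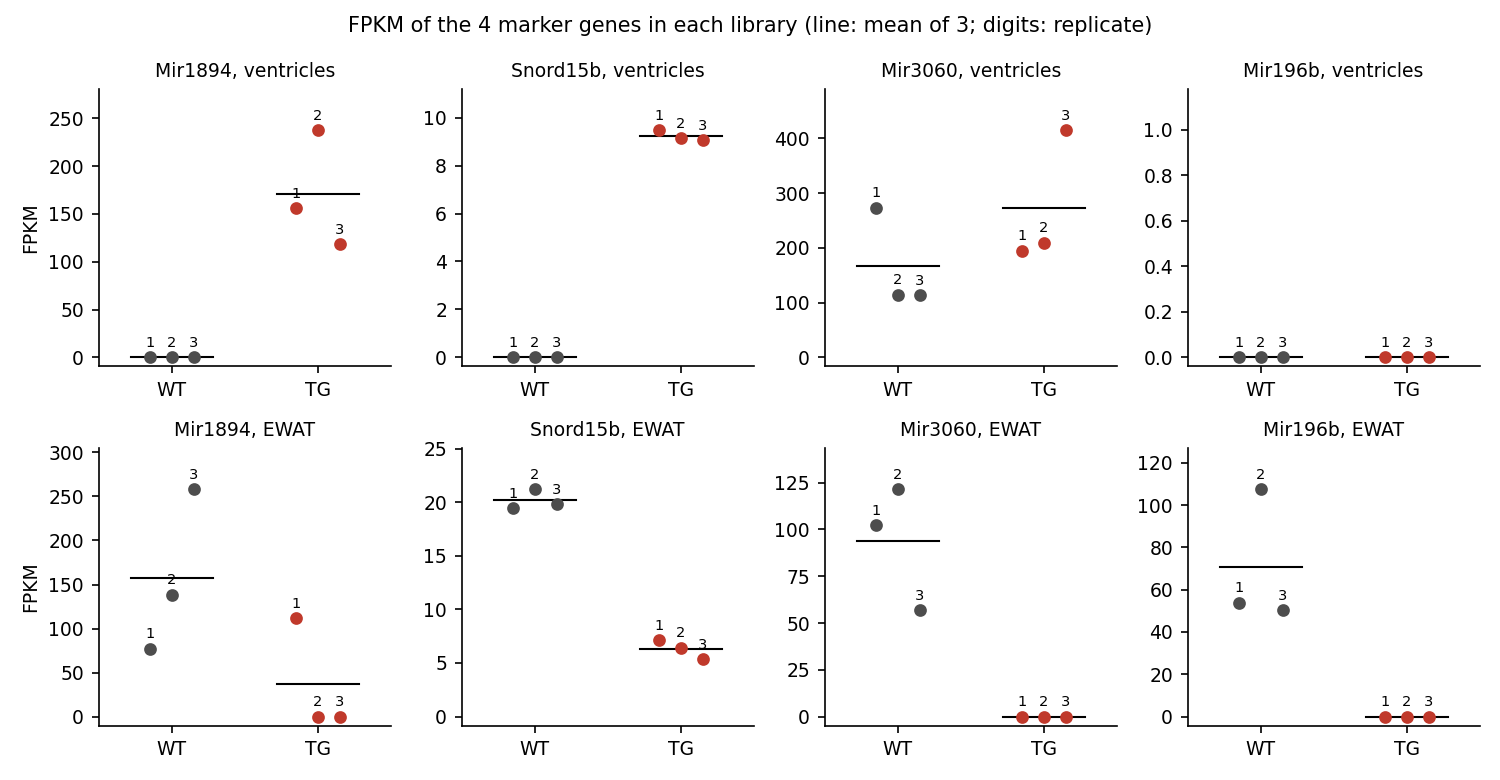
FPKM (vertical, from 0) of the 4 marker genes in WT (grey) and TG (red) libraries, top row ventricles and bottom row EWAT; the digit is the replicate and the line the mean of 3. Mir1894 and Snord15b were at 0 in every WT ventricle, Mir3060 and Mir196b were at 0 in every TG EWAT library, and Mir196b was at 0 in all ventricles.

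Few members had groups that did not overlap. In ventricles every TG value lay above every WT value for 5 of 164 members (3.05%), against 3.46% of all genes, and below for 1 (0.610%), against 5.85%. With 3 libraries a group, an exact permutation test of a single gene cannot go below p = 0.1 (two-sided). Beside the 2 genes above, the higher ones were Mir3100, Snora3 and Mirlet7d. Leaving out any 1 library gave more members without overlap in both directions, since fewer values separate more easily. The share over all genes was not computed for those sets, so their counts are not given. Mir3100, a hairpin in an intron of the myotonic dystrophy kinase gene Dmpk, stood at 1473, 1540 and 1017 in WT and at 3455, 3291 and 5132 FPKM in TG. The means differed 2.95-fold (log2 difference 1.55 ± 0.25; limma, adjusted p = 0.462), and fragments numbered 3 and 2 in WT and 7 and 11 in TG libraries 2 and 3. It was the member above 0 in all libraries with the highest mean level in ventricles.

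Snora3, a box H/ACA snoRNA of the ribosomal protein gene Rpl27a, stood at 25.4, 21.3 and 21.1 in WT and at 121, 58.5 and 77.4 FPKM in TG ventricles. All TG values were higher, by 3.79-fold in the mean (log2 difference 1.82 ± 0.26; limma, adjusted p = 0.241), from 1 and 1 against 3 and 4 fragments. Mirlet7d stood at 34.5, 0 and 80.9 in WT and at 107, 187 and 148 FPKM in TG, with 0 and 2 against 5 and 4 fragments (log2 difference 3.34 ± 1.51; adjusted p = 0.966 by limma). The member that was lower was Mir677, in an intron of the ATP synthase gene Atp5b, at 493, 324 and 634 in WT and 318, 146 and 145 FPKM in TG (log2 difference -1.30 ± 0.37; limma, adjusted p = 0.945). The lowest WT value, of WT 2, exceeded the highest TG value, of TG 1, by little.

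The other 2 markers did not separate the genotypes in ventricles. Mir3060 stood at 274, 114 and 113 in WT and at 195, 209 and 415 FPKM in TG, with 1 and 1 against 2 and 4 fragments in replicates 2 and 3. WT 1 lay above TG 1 and TG 2, and the difference did not pass the test (log2 difference 0.75 ± 0.43; limma, adjusted p = 0.966). Mir196b was listed at 0 in all 6 ventricle libraries.

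In EWAT 2 members fell past the threshold, Mir3060 and Mir196b, and none rose. Mir3060, a hairpin in an intron of the ring finger gene Rnf215, stood at 102, 122 and 56.8 FPKM in the WT libraries and was listed at 0 in all 3 TG libraries. Mir196b, from the Hoxa cluster of developmental regulators, stood at 53.9, 108 and 50.2 FPKM in the WT libraries and was likewise listed at 0 in all 3 TG libraries. WT libraries 2 and 3 held 2 and 1 fragments of each. The log2(FPKM + 1) difference was -6.49 ± 0.33 for Mir3060 and -6.07 ± 0.35 for Mir196b (limma, adjusted p = 0.0240 for both). Same-numbered EWAT libraries deviated together for replicates 1 and 2 (correlations 0.347 and 0.304), but for replicate 3 (0.144) no more than other pairs (highest 0.168). In a fit blocked on the replicate number neither gene passed (limma, adjusted p = 0.385 for both). With the block 0 members rose and 0 fell.

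Without any 1 of the TG libraries neither gene passed: for Mir196b the limma adjusted p was 0.111 without TG 1, 0.202 without TG 2 and 0.103 without TG 3, and for Mir3060 it was 0.101, 0.182 and 0.103. Without WT 1 it was 0.105 for both, and without WT 2 it was 0.0609 for Mir196b and 0.0731 for Mir3060. Without WT 3 it was 0.0976 for Mir196b, while Mir3060 passed. Both genes were at 0 in TG 1 and TG 2, which carried the unusual tissue markers, and in TG 3, whose markers were near those of WT. WT 3 itself held only 1 fragment of each. The part of tissue makeup in the result was not tested, and these fits do not separate it from genotype.

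These 2 were also the 2 genes of 14967 (0.0134%) at 0 in every TG and above 0 in every WT library, no gene (0%) showing the opposite, and the 2 genes (0.0134%) that fell at an adjusted p under 0.05 while none (0%) rose. Only 869 of the 14967 were at 0 in any library, 140 of them members, and no other gene could show either pattern of zeros. Both genes were picked with it known. At an unadjusted p under 0.05 7 of 180 members (3.89%) were lower, beside 1.11% of all genes, and 2 (1.11%) were higher, beside 0.14%. Of the lower ones Mir3060 and Mir196b became members through WT alone, which fixed the sign of their estimates, and for these the count supports no difference. Others, such as Snord15b and Snora70, were above 0 in every library. They were not tested as a set, and the count is a description only. Over replicates 2 and 3 each gene amounted to 3 fragments in WT, 0.0654 per M (0.0135 to 0.191), and to 0 in TG, which allows up to 0.0744 per M. The limit in TG lay above the WT estimate, and by counting error alone the difference was not detectable at this depth.

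Mir196b lies at chr6:52180080-52180164 (mm9, counted from 1), in the GENCODE annotation within an exon of a Hoxa9 transcript, and between the rows of Hoxa9 and Hoxa10. Hoxa9 stood at 2.95, 1.94 and 1.10 in WT and at 1.50, 0.503 and 2.84 FPKM in TG EWAT. Hoxa10 stood at 3.60, 3.13 and 0.927 in WT and at 0.819, 0.318 and 3.12 FPKM in TG. Both overlapped between genotypes, with the lowest value in TG 2 and a WT-like value in TG 3, where Mir196b was at 0. Of 12 Hoxa rows 8 were tested in EWAT, 5 with a lower and 3 with a higher estimate in TG, and 0 passed the test, with a lowest limma adjusted p of 0.738. In EWAT Hoxa4 alone did not overlap, at 2.68 to 3.34 in WT and at 45.6, 3.93 and 4.05 FPKM in TG, the first of these in TG 1. In ventricles no Hoxa row reached a mean of 1 FPKM (highest mean 0.866).

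The other microRNAs of the Hox clusters were also seen in few libraries. Mir196a-1, of the Hoxb cluster and with the same 5p seed, stood at 118, 68.0 and 339 in WT and at 0, 82.5 and 205 FPKM in TG EWAT. The genotypes overlapped, and the 0 was in TG 1. It held 3 and 16 fragments in WT 2 and WT 3 and 3 and 9 in TG 2 and TG 3. Mir10a, also of Hoxb, was at 16.9, 16.3 and 0 FPKM in the WT libraries and at 0 in TG, and Mir10b, of Hoxd, was above 0 only in TG 3, at 199 FPKM.

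In EWAT the groups did not overlap for 4 lower members (2.22%), against 7.8% of all genes, and for 3 higher members (1.67%), against 4.88%. Here too, leaving out any 1 library gave more members without overlap in both directions, and the share over all genes was not computed for those sets. Beside Mir3060 and Mir196b the lower ones were Snord15b and Mir703. Snord15b stood at 19.5, 21.2 and 19.8 in WT and at 7.12, 6.43 and 5.34 FPKM in TG, from 4 and 4 against 1 and 1 fragments. The WT mean was 3.21 times the TG mean (log2 difference -1.54 ± 0.20; limma, adjusted p = 0.738). Over replicates 2 and 3 its level was 0.174 fragments per M in WT (0.0753 to 0.344) and 0.0496 in TG (0.00601 to 0.179), and the intervals overlapped. In ventricles the TG values of the same gene were the higher ones, and the difference between the tissues was not tested.

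Mir703, on the other strand of Cfap299, was the member with most fragments in EWAT. It stood at 2128, 2002 and 2125 in WT and at 397, 1439 and 1605 FPKM in TG, with 118 and 134 against 70 and 94 fragments. TG 1 was far below the others. The log2 difference was -1.10 ± 0.63 (limma, adjusted p = 0.738). Over replicates 2 and 3 the level was 5.49 fragments per M in WT (4.84 to 6.21) and 4.07 in TG (3.47 to 4.74), and these counting intervals did not overlap. In ventricles Mir703 stood at 792, 383 and 221 in WT and at 426, 409 and 232 FPKM in TG, with full overlap.

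The higher members of EWAT were Mirlet7d, Mir5133 and Snord88c. Mirlet7d stood at 18.3, 21.7 and 20.3 FPKM in WT, where libraries 2 and 3 held 1 fragment each, and at 29.4, 105 and 21.9 FPKM in TG, with 4 and 1 fragments in TG 2 and TG 3. TG 2 was far above the others, and TG 3 was near WT (log2 difference 0.99 ± 0.60; limma, adjusted p = 0.738). The log2 difference ranged from 0.12 to 1.43 over the alternative fits. Mir5133 and Snord88c, named here after their values were seen because their count was small, stood at 0, 0 and 85.3 FPKM against 140, 111 and 91.8 FPKM, and at 0, 57.1 and 0 FPKM against 258, 138 and 57.5 FPKM. Neither held more than 2 fragments in any library of replicates 2 and 3. In all 3 genes equal counts stood on both sides: 1 fragment in TG 3 and 1 in WT 2 or WT 3. Library depth alone put those TG values above WT. Mirlet7d was the only member above WT without overlap in both tissues, in EWAT with this limit. Snord15b was the only one apart in opposite directions.

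Mir1894, at 0 in WT ventricles, was above 0 in all WT EWAT libraries, at 77.1, 138 and 258 FPKM. In TG EWAT it stood at 112, 0 and 0 FPKM. TG 1 lay within the WT range and the others were at 0, and the difference did not pass the test (log2 difference -4.87 ± 1.95; limma, adjusted p = 0.738).

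**Figure D4:**
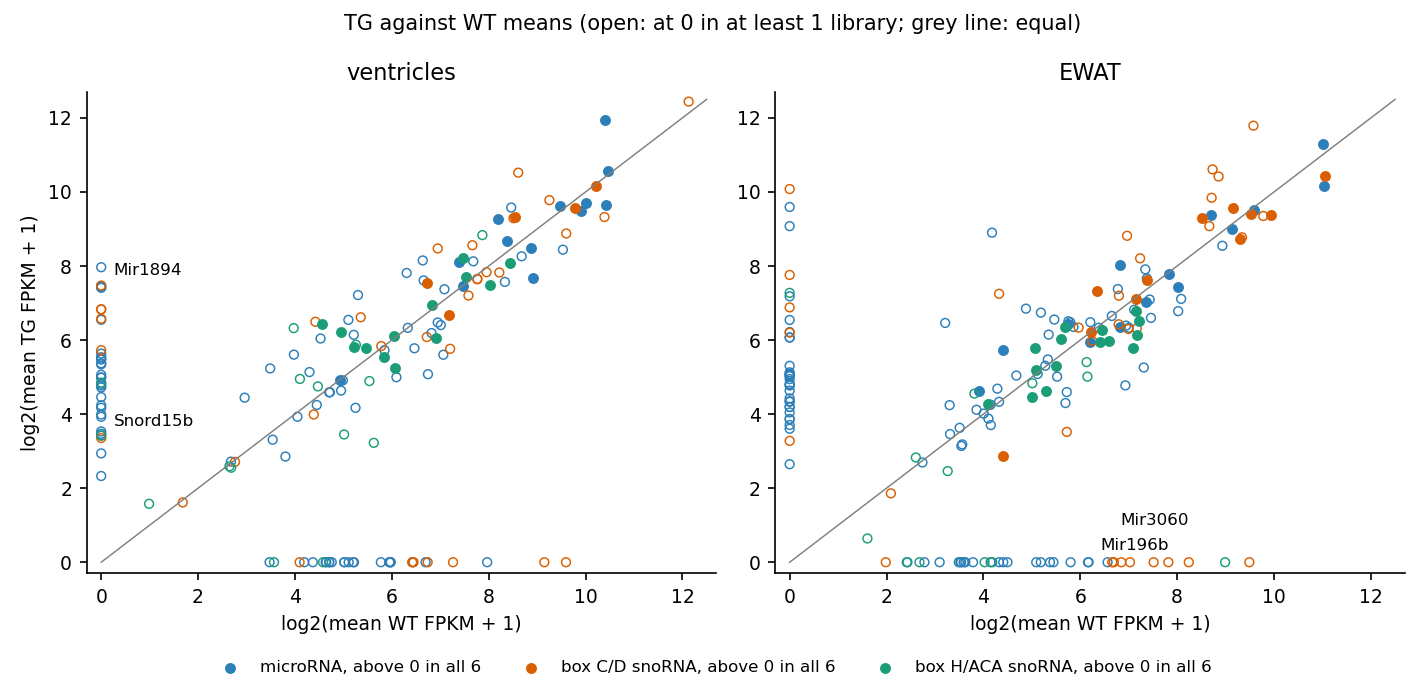
Mean of the 3 TG libraries against mean of the 3 WT libraries, both as log2(FPKM + 1), for members in ventricles (left) and EWAT (right); filled points were above 0 in all 6 libraries and open points were at 0 in at least 1. Points on an axis are the 35 members at 0 in all WT and 30 at 0 in all TG ventricles, and the 35 and 35 in EWAT; the 4 genes past the threshold are named and lie among them.

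The count at 0 in a whole genotype was close between genotypes. In ventricles 35 members were at 0 in all WT libraries and 30 in all TG libraries, and in EWAT 35 and 35. In 66 members of ventricles and 71 of EWAT the mean of 1 genotype was under 1 FPKM, and these passed the level rule through the other genotype alone, so no count over them supports a difference. Of members above 0 in all 6 libraries, 16 of 31 had a higher and 15 a lower estimate in TG ventricles, with a median log2 difference of 0.04 beside -0.01 over all genes. In EWAT 14 of 40 had a higher and 26 a lower estimate, with a median of -0.20 beside 0.01 over all genes. By kind the EWAT medians were -0.11 for 14 microRNAs, -0.06 for 11 box C/D snoRNAs and -0.42 for 15 box H/ACA snoRNAs, and the ventricle medians were -0.05, -0.10 and 0.06.

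Among members above 0 in all 6 libraries, Mir762, Snord47 and Mir568 were among those of highest level in both tissues. Mir3100, the highest in ventricles, stood at 261, 0 and 255 in WT and 407, 0 and 0 FPKM in TG EWAT. Mir703 had a mean of 1616 FPKM in EWAT and 410 FPKM in ventricles. Mir762 lies on the strand opposite to the chromatin gene Bcl7c and stood at 2395, 1109 and 733 in WT and 1192, 1354 and 2017 FPKM in TG ventricles. In EWAT it stood at 2568, 1180 and 2481 in WT and 4001, 1787 and 1781 FPKM in TG. TG and WT overlapped in both tissues. Snord47, a box C/D snoRNA of the noncoding growth arrest gene Gas5, stood at 511, 1026 and 2034 in WT and 1997, 940 and 467 FPKM in TG ventricles, and at 1871, 3003 and 1531 in WT and 390, 993 and 2746 FPKM in TG EWAT. Its genotypes also overlapped in both tissues.

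Mir568, in an exon of the zinc finger gene Zbtb20, stood at 1519, 1028 and 1585 in WT and 856, 314 and 1246 FPKM in TG ventricles, and ranged from 272 FPKM (TG 1) to 1162 FPKM (TG 3) in EWAT. Mir1896, which shares a locus with the zinc finger gene Zfp187, ranged from 472 to 1208 FPKM in ventricles and from 377 to 670 FPKM in EWAT. Snord104 ranged from 232 to 860 FPKM in ventricles and from 454 to 1399 FPKM in EWAT. None of these 5 passed the test in either tissue (lowest limma adjusted p 0.738). Over members above 0 in all 12 libraries the rank correlation of WT means between the tissues was 0.828 (n = 25), and over all 137 shared members 0.631, a description across genes. Within ventricles, the rank correlation between libraries over all members was 0.289 to 0.480 between WT and TG and 0.328 to 0.433 between WT libraries. These values lay far under the 0.944 to 0.969 over all genes between WT and TG. Over the 31 members above 0 in all 6 libraries they were 0.825 to 0.916 and 0.864 to 0.945.

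No host or neighbour of the markers passed the test in either tissue. Mir1894 overlaps an exon of Ppp1r10 in the annotation, and its row has the locus chr17:36053508-36069228 (mm9), the span shared with that gene, which encodes a nuclear targeting subunit of protein phosphatase 1. Ppp1r10 stood at 7.29, 9.0 and 8.81 in WT and 7.26, 7.48 and 7.02 FPKM in TG ventricles. Its log2 difference was -0.18 ± 0.11 (limma, adjusted p = 0.966), an estimate on the other side of 0 from that of Mir1894. Rps3, the locus of Snord15b (chr7:106626407-106632219), stood at 916, 763 and 801 in WT and 931, 854 and 749 FPKM in TG ventricles, with overlap. In EWAT Rps3 stood at 1009, 1017 and 1247 in WT and 345, 572 and 985 FPKM in TG, and all TG values were lower (log2 difference -0.91 ± 0.47; limma, adjusted p = 0.738). TG 3 was near the WT values for Rps3 and at 5.34 FPKM for Snord15b. Snord15a, in the same gene, stood at 8.23, 0 and 9.13 in WT and 8.20, 8.44 and 0 FPKM in TG ventricles. In EWAT it was at 4.29, 0 and 4.58 FPKM in the WT libraries and at 0 in TG.

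Mir3060 shares the locus chr11:4035163-4060296 with Rnf215 and Ccdc157. Rnf215 stood at 12.6, 13.3 and 12.3 in WT and 6.45, 19.8 and 12.0 FPKM in TG EWAT, and Ccdc157 at 5.74, 5.08 and 4.28 in WT and 23.4, 4.21 and 5.90 FPKM in TG. Neither was near 0 in any library. Dmpk, host of Mir3100, stood at 305, 318 and 345 in WT and 377, 304 and 376 FPKM in TG ventricles, Rpl27a, host of Snora3, at 112, 81.3 and 94.0 FPKM against 104, 131 and 85.6 FPKM, and Atp5b, host of Mir677, at 6218, 5027 and 5265 FPKM against 3932, 5787 and 4389 FPKM. The genotypes overlapped for each of these 3 genes. Mirlet7d stood alone in its locus (chr13:48631381-48631483), with Zfp169 and Ptpdc1 as the nearest rows on either side, and neither passed the test in either tissue.

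**Figure D5:**
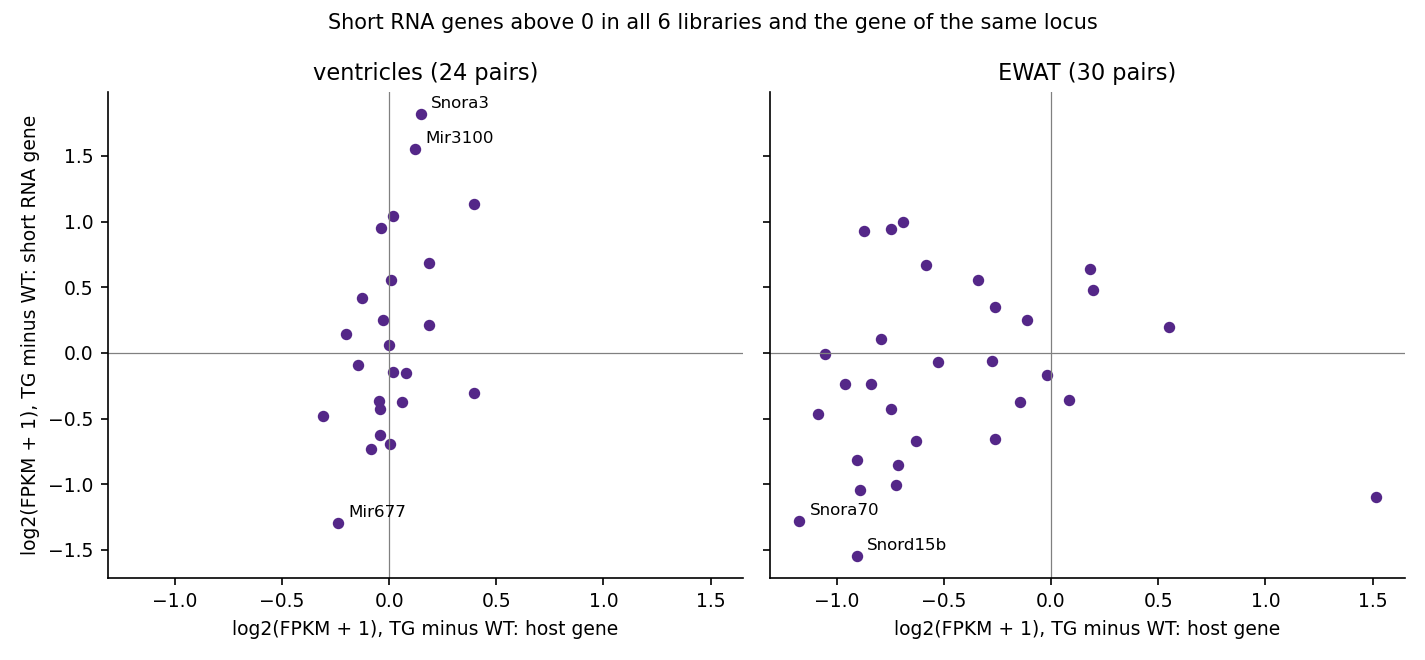
TG minus WT difference on the log2(FPKM + 1) scale of each short RNA gene above 0 in all 6 libraries (vertical) against that of the single other gene in its locus (horizontal), ventricles left and EWAT right. The axis calls the other gene a host, also where the short RNA gene lies on its other strand. In ventricles the differences of the other genes lie close to 0. Those of the short RNA genes run from -1.30 (Mir677) to 1.82 (Snora3). In EWAT both spread.

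Members above 0 in all 6 libraries with 1 other gene in the locus were paired with that gene. The signs of both were the same for 15 of 24 pairs in ventricles and 20 of 30 in EWAT. The other gene is not always a host, since Mir762 and, in EWAT, Mir703 lie on its other strand. The rank correlation of the differences was 0.506 and 0.290, a description across genes that share the same libraries. In level the rank correlation was 0.200 and 0.152, and 15 of 24 and 16 of 30 members had a higher FPKM than the other gene. In ventricle library WT 2, 1 fragment of an 85-base RNA was worth 101 FPKM. These counts therefore do not compare amounts of RNA.

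The heart and muscle microRNAs were nearly unseen. Of 10 such genes listed, 8 had a row of their own, 3 were members in ventricles, none was above 0 in all libraries and none passed the test. Mir133a-1 stood at 316, 742 and 0 in WT and 943, 0 and 1349 FPKM in TG, and Mir133a-2 at 204, 0 and 194 FPKM against 0, 71.7 and 71.1 FPKM. In EWAT none of the list was above 0. Of 12 let-7 genes, which promote differentiation and restrain growth, 6 were members in ventricles and 0 passed. Mirlet7b stood at 0, 0 and 100 in WT and 0, 185 and 91.9 FPKM in TG, and the other 4 beside Mirlet7d were at 0 in WT and above 0 in a single TG library each. These 4 became members through TG alone, which fixed the sign of their estimates. The summed level of the family was 34.5, 0 and 181 in WT and 170, 465 and 324 FPKM in TG, with WT 3 above TG 1. In EWAT 7 let-7 genes were members, 3 with a higher and 4 with a lower estimate, and 0 passed.

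Of 3 vascular microRNA genes with a row 2 were members in ventricles. Mir126, of endothelial cells, stood at 761, 235 and 232 in WT and 492, 0 and 427 FPKM in TG, and Mir145, of smooth muscle, at 311, 0 and 303 FPKM against 0, 280 and 556 FPKM. In EWAT 3 of the list were members, and none of them passed in either tissue. Of 12 adipocyte microRNA genes with a row 3 were members in EWAT, none past the threshold. All 3 were at 0 in every WT library and so became members through TG alone, which fixed the sign of their estimates. Mir27b stood at 0 in all WT and TG 1 and at 151 and 126 FPKM in TG 2 and TG 3. Mir365-2 had the same pattern at 18.3 and 15.2 FPKM, and Mir103-2 was above 0 only in TG 2. TG 2 was the library with most adipocyte transcripts. In ventricles 3 of this list were members, and 0 passed.

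The Hox cluster list of 6 had 4 members in EWAT, 1 of them lower past the threshold (Mir196b, a gene picked with this known), and 1 in ventricles. The lists of Mir30, Mir29 and Mir21 (2 members in ventricles and 0 in EWAT), blood cells (1 and 0) and the imprinted Dlk1-Dio3 region (3 and 1) had no member past the threshold. None of the listed brain microRNAs or of the testis and ciliated duct microRNAs was above 0 in either tissue, also not in EWAT TG 1, where testis germ cell transcripts were high.

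The messenger RNAs of the proteins that make or use microRNAs and snoRNAs were measured far better. All were above 0 in every library where tested. Of 11 microRNA processing genes tested in ventricles and 10 in EWAT none passed the threshold (median log2 difference -0.04 and 0.07). Tnrc6c, a partner of Argonaute, was the one such gene lower without overlap in ventricles, at 18.6 to 20.3 FPKM in WT against 14.5 to 16.9 FPKM (limma, adjusted p = 0.966). Drosha, the nuclear hairpin nuclease, stood at 30.0, 23.0 and 22.9 in WT and 19.8, 34.5 and 23.6 FPKM in TG ventricles. Tarbp2, a partner of Dicer, stood at 19.7 to 25.0 in WT and at 161, 21.9 and 23.4 FPKM in TG EWAT, the high value in TG 1. Of 8 box C/D and 7 box H/ACA protein genes none passed in either tissue. Nop56, a core box C/D protein gene, was higher in every TG ventricle, at 14.1 to 16.7 FPKM in WT against 17.9 to 18.5 FPKM (limma, adjusted p = 0.966). Nhp2, a core box H/ACA protein gene, was lower in every TG EWAT library, at 47.2 to 64.1 FPKM in WT against 32.2 to 45.3 FPKM (limma, adjusted p = 0.738). The box C/D methyltransferase gene Fbl stood at 34.6, 25.2 and 23.8 in WT and 31.8, 35.1 and 29.3 FPKM in TG ventricles. The pseudouridine synthase gene Dkc1 stood at 10.1, 12.0 and 14.8 FPKM against 10.8, 11.8 and 12.1 FPKM. Of the noncoding snoRNA hosts 10 were tested in ventricles and 11 in EWAT, and none passed (median log2 difference 0.06 and -0.28). Snhg1 was lower in every TG ventricle, at 58.5 to 80.6 FPKM in WT against 46.6 to 58.4 FPKM (limma, adjusted p = 0.966). Snhg8 was the one such gene apart in EWAT, at 153, 133 and 150 in WT and 72.7, 99.6 and 117 FPKM in TG (limma, adjusted p = 0.738). Of the noncoding microRNA hosts H19, host of Mir675, stood at 23.7, 16.4 and 15.5 in WT and 29.3, 62.5 and 28.7 FPKM in TG ventricles, with all TG values higher (log2 difference 1.00 ± 0.32; limma, adjusted p = 0.966), and Rian overlapped between the genotypes.

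Markers of other cells gave 0 genes past the threshold in either tissue. Those of macrophages summed to 28.7 to 40.1 in WT and 36.3 to 45.2 FPKM in TG ventricles, and to 21.1 to 33.1 in WT and 10.6 to 61.7 FPKM in TG EWAT. Csf1r, a macrophage receptor, was at 15.7 to 19.7 FPKM in WT against 21.0 to 23.0 FPKM in TG ventricles (limma, adjusted p = 0.966), and its part in the results was not tested. The blood gene Alas2 was between 23.9 and 54.7 FPKM in ventricles and between 4.30 and 20.1 FPKM in EWAT. In bulk tissue, fewer cells of a type and less RNA per cell cannot be told apart.

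The level rule cut little. In ventricles all 164 rows above 0 in any library were members. The members of lowest mean were Snora74a (mean 1.48 FPKM) and Mir1946a (2.01 FPKM), and rows outside were at 0. In EWAT the lowest were Snora74a (1.30 FPKM) and Snord15a (1.48 FPKM), and the single row just outside was Snora23 (0.761 FPKM).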

How the data were processed

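The authors sequenced RNA from ventricles and EWAT of WT and MED13cTg mice (TruSeq RNA libraries), aligned reads with TopHat, and deposited FPKM values per gene from Cufflinks at default settings, 1 table per tissue. The submitters' processing notes name mm9, and versions and strand use are not given in the sources used here. The authors' means and folds, and 1 unnamed column, were not used. Each library was taken as 1 mouse, and where that does not hold the p-values measure only the spread between libraries.

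The members and gene lists were chosen with earlier results of these data known. Named genes were the 4 markers, members past the threshold, those of highest level or of largest change without overlap, those at 0 in 1 genotype alone, their hosts or neighbours, and the leading genes of each list. The lists are heart and muscle, let-7, Mir30, Mir29 and Mir21, vascular, adipocyte, Hox, blood cell, testis and ciliated duct, Dlk1-Dio3 and brain microRNAs; microRNA processing, snoRNP and noncoding host genes; and markers of cardiomyocytes, adipocytes, epididymis, testis germ cells, macrophages and blood.

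limma 3.58.1 (R 4.3.3) was run on log2(FPKM + 1) of each tissue alone, with a mean-variance trend, for genes averaging 1 FPKM or more (Benjamini-Hochberg adjustment over all genes, threshold 0.05), first tested on simulated data. The tables hold no counts. Fragments were recovered from FPKM steps with RefSeq lengths, with exact Poisson intervals (95%) and a limit of 3 fragments where none was seen. Intervals cover counting error only.

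Locus starts count from 0 in the tables (52 of 53 single-gene loci span the RefSeq length), and 1 was added. A locus shared by several genes is the span of all. In EWAT, deviations from the group means correlated between same-numbered WT and TG libraries (0.347, 0.304 and 0.144, highest other 0.168), although WT and TG are different mice, so the blocked fit is printed there. Alternatives changed the pseudocount (0.1), filter (none or 5 FPKM), scaling (median of ratios, quantile), trend, block, library cluster, single libraries and joined entries. Python 3.11.15 with pandas 2.3.3, numpy 2.4.6, scipy 1.17.1 and matplotlib 3.10.9 served for the rest.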

Additional observations from a re-analysis of the deposited data

Results flagged for a closer look

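Snord15b, a gene chosen with these values known, had groups that did not overlap in either tissue, in opposite directions. Every TG ventricle lay above every WT ventricle (log2(FPKM + 1) difference 3.35), and every TG EWAT library lay below every WT EWAT library (-1.54). The EWAT difference did not pass the test (limma, adjusted p = 0.738), and the difference between the tissues was not tested. The values rest on 0 against 1 fragment per library in ventricles and on 4 against 1 in EWAT, in the libraries where fragments could be counted.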

How the results depend on the processing

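Mir1894 passed the threshold in all 16 alternative ventricle fits, one of them with library cluster (WT 1, TG 1 and TG 2 against the others) as a covariate (limma, adjusted p 1.30e-05 to 0.0203) and Snord15b in all 15 that tested it (7.41e-05 to 0.00619). Each of these fits rests on the same pattern, WT at 0 and TG at 1 or 2 fragments in replicates 2 and 3. Both genes became members through TG alone, so the fits are not independent support. By counting error alone neither difference was detectable at this depth. With a filter at a mean of 5 FPKM Snord15b was not tested, and 1 member was higher, beside 2 of all 9283 genes. In ventricles, leaving out single libraries gave 2 to 5 higher and 0 to 3 lower members. Over all 12589 genes it gave 3 to 6 higher and 0 to 4 lower. In EWAT it gave 0 to 2 higher and 0 to 3 lower members. Over all 14967 genes there it gave 0 to 2 higher and 0 to 4 lower. The lower EWAT members numbered 0 with no filter and 0 with the replicate block (no filter: limma adjusted p = 0.0664 for Mir196b and 0.0660 for Mir3060). Without EWAT TG 1 and TG 2 together a lone TG library is left and assumed to vary like WT, so no count or p-value is given. Over the 16 alternative EWAT fits, this one included, the log2 difference ran from -9.37 to -5.73 for Mir196b. For Mir3060 it ran from -9.80 to -6.27. Without replicate 1 of both genotypes, an alternative chosen after seeing the data, 6 members were higher and 5 lower in ventricles, and 1 higher and 3 lower in EWAT. Over all genes 7 were higher and 5 lower in ventricles, and 1 higher and 3 lower in EWAT. Members made up most of these calls. The counts support no difference where members passed the level rule through 1 genotype alone. The cause of these shifts was not tested. In ventricles the replicate block, where numbers do not pair the libraries (correlations 0.0855, -0.192 and 0.140), left 2 members higher and 0 lower. Over all genes it left 3 higher and 1 lower, and EWAT is in the report.

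The direction of the log2 difference turned in 5 cases. In ventricles, leaving out single libraries gave -0.14 (without WT 3) to 0.72 for Mir762, and -0.63 to 0.42 for Snord47 (0.40 without WT 3, 0.42 without TG 3). In EWAT it gave -0.75 to 0.29 (without TG 1) for Mir568, and -0.13 (without TG 1) to 0.45 for Mir762 (-0.11 without WT 2). Mir568 was at 0.0097 with quantile normalization, 0.62 without TG 1 and TG 2 and 0.41 without replicate 1 of both genotypes. Without TG 1 and TG 2, Mir762 was at -0.14 and Snord47 at 0.42. These genes passed the threshold in none of their 16 alternatives. A bound of 0.1 FPKM in place of 0 left every count of members at 0 as it was. At this depth 60.4% of the members' values above 0 are 1 or 2 fragments, in the libraries where fragments could be counted.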
